A study of Mus musculus with 18 samples.

Results

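Prmt1 (protein arginine methyltransferase, Entrez gene 15469) is the gene deleted in these cells, and its values are those of the row carrying that symbol, 1 of 19862 genes in the table, across all 18 libraries. The libraries come from murine osteosarcoma cells, a bone tumour line, derived on a mixed background from p53 and Rb conditional knockout mice and labelled postnatal day 299. All groups share that origin, the floxed Prmt1 alleles (Prmt1 f/f, flanked by sites for Cre recombinase) and a stably expressed CreER, a Cre that enters the nucleus on tamoxifen. Control cells were given ethanol (ETOH), the vehicle, and are labelled wild type although they carry the floxed alleles. Knockout cells were given 4-hydroxytamoxifen (4OHT). From each treatment there are 3 libraries of Total cytoplasmic RNA, 3 of Light polysomes (fewer than 3 ribosomes on the message) and 3 of Heavy polysomes (more than 3 ribosomes), separated on 10 to 50% sucrose gradients. Cells without floxed alleles that received 4-hydroxytamoxifen are not among these libraries, so the deletion, the drug and active Cre cannot be told apart. No label says that a group's 3 libraries are separate cultures. The p-values therefore reflect spread among these libraries, perhaps a technical spread. Which exons were floxed is not stated.

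Prmt1 transfers methyl groups from S-adenosylmethionine to arginines, often in glycine- and arginine-rich stretches of RNA-binding proteins and on histone H4, and makes most of the asymmetric dimethylarginine of mammalian cells. A sucrose gradient sorts messages by the ribosomes they carry, so a message that is intact and well translated is usually enriched in the Heavy fraction. The level in each fraction is a share of that library's reads, in counts per 1000000 reads (CPM), and not a rate of translation.

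Prmt1 lies on chromosome 7 at chr7:44976755-44986420 of mm10 (GRCm38), minus strand, a span of 9666 bases in RefSeq. GENCODE M21 lists 14 transcripts for it, of which 10 are protein coding, 6 of those with a complete coding sequence, 3 retain an intron and 1 is marked for nonsense-mediated decay. The transcript with the longest coding sequence, Prmt1-202, has 11 exons and 1508 bases, with 1113 coding bases (371 codons). Its exon 2 is in 1 of the 6 complete coding transcripts, and the deposited value sums reads over forms with and without it. The coding parts of exons 5 to 10 (64, 143, 88, 116, 151 and 122 bases) are each no multiple of 3, so leaving out any of these exons alone shifts the reading frame, while exons 2, 3 and 4 (54, 102 and 156 bases) keep it. A read on an exon that was not deleted is still counted for the gene. The value is therefore the message made from the locus, deleted or not, and does not measure how many cells lost the gene.

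The sequences below, from the GENCODE M21 transcripts, are shown because they set what the reads of this row can stand for. Both are written along the message. The first is exon 2, at chr7:44984080-44984133, which sets Prmt1-202 apart from the other complete coding transcripts. Exons 3 to 8 are not shared by all of these transcripts either. The second is the longest run that Prmt1 coding sequence shares with its closest relative Prmt8, in exon 6 at chr7:44979444-44979481.
Prmt1 exon 2: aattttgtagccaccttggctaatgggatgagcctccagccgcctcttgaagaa
Run shared with Prmt8: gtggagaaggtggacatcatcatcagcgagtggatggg
The shared run is 38 bases long, and the longest runs shared with the other 7 arginine methyltransferases are 11 to 18 bases. Prmt8 itself had a mean of at most 0.0089 CPM in any group. In the GENCODE annotation 0 genes have an exon overlapping an exon of Prmt1. Its 50-base words of coding sequence recur in 1 other gene model, AC148336.1 (22 words), which is not in the deposited table.

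Depth ran from 32255673 to 57948663 reads a library. Of 9 osteoblast markers, 7 had a mean over 1 CPM in every group. Their sums were 2330 to 6125 CPM in control libraries and 4560 to 13180 CPM in knockout libraries, and Ibsp was at 0 in every group but Total control. Sums of markers of other cell types were low but higher in knockout libraries. Only 1 of 5 endothelial and 1 of 5 epithelial markers averaged over 1 CPM in each knockout group, and 0 in controls. Of 6 macrophage markers 1 or 2 did so in control groups and 2 in knockout groups. The sums do not show whether the markers of a list rose together. The 6 macrophage markers summed to 3.99 to 5.83 CPM in controls, and in knockout libraries to 6.92 to 17.2 CPM, with Tyrobp, Adgre1, Ptprc or Itgam at 0 in some groups. The 5 endothelial markers summed to 0.181 to 0.763 and 1.79 to 4.06 CPM, with Tek at 0 in 4 groups and Cdh5 in 1, and the 5 epithelial markers to 0.429 to 1.11 and 4.90 to 9.94 CPM, with 0 of them at 0. Their part in the Prmt1 values below was not tested.

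In control cells Prmt1 was an abundant message, and its mean share of reads was highest in Heavy polysomes. In Heavy control libraries 1, 2 and 3 it had 412, 378 and 370.1 CPM (387 ± 22.6, SD, n = 3), which placed it within the top 2.81 to 3.2% of the genes detected in each. Total control libraries held 256, 277 and 285 CPM (273 ± 14.9), and Light control libraries held 255, 243 and 218 CPM (239 ± 19.0). The lowest Heavy control library thus lay above every Total and Light control library. The lowest Total library (256 CPM) lay just above the highest Light library (255 CPM). How many other genes show such gaps between fractions was not counted. Heavy passed the test against Light RNA (limma adjusted p = 0.0119), where 23.6% of genes were called higher, but not against Total RNA (0.0705).

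In knockout cells the order of the fractions by mean was the opposite. Heavy knockout libraries 1, 2 and 3 had 64.4, 121 and 145 CPM (110.3 ± 41.6, SD, n = 3), and Prmt1 ranked within the top 9.54 to 19.48% of genes detected there. Total knockout libraries had 147, 176 and 173 CPM (166 ± 16.3). Light knockout libraries had 166, 229 and 235 CPM (209.9 ± 38.1). Light knockout library 1 lay below Total knockout libraries 2 and 3. Light minus Total did not pass the test in knockout cells (limma adjusted p = 0.286). Knockout libraries lay below all control libraries in Total and Heavy RNA, as they did for 20.2 and 13.8% of the genes tested, and overlapped with them in Light RNA, where libraries 2 and 3 of the knockout lay within the control range.

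**Figure D1:**
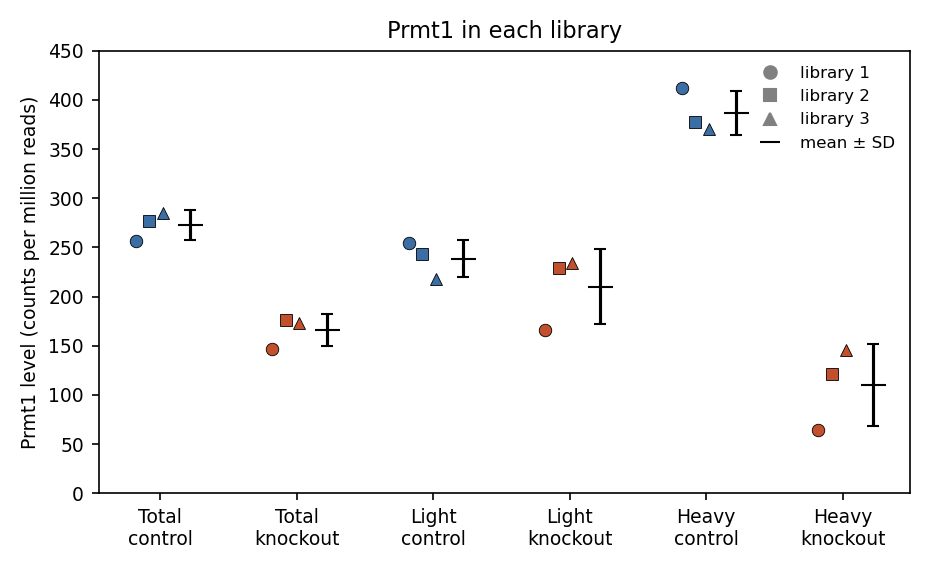
Prmt1 level in CPM (vertical axis) in each of the 18 libraries, by fraction and treatment; blue points are control and orange points knockout libraries, the marker shape is the library number, and bars are mean ± SD (n = 3). Heavy control libraries are the highest (370.1 to 412 CPM) and Heavy knockout libraries the lowest (64.4 to 145 CPM), while Light knockout and control libraries overlap.

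These values rest on 2605 reads in Heavy knockout library 1 to 16418 reads in Heavy control library 1. The exact binomial 95% intervals, which cover counting error only, were 62.0 to 66.9 CPM and 406 to 419 CPM for those libraries. Counting error alone gives a coefficient of variation of 0.808 to 1.59% in a group. The libraries of a group varied far more, by 5.45% in Total control, 5.84% in Heavy control and 7.97% in Light control cells. The variation was 9.83% in Total knockout, 18.1% in Light knockout and 37.7% in Heavy knockout cells. The spread between libraries, not depth, therefore limits every comparison of Prmt1.

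Knockout cells were compared with control cells in each fraction. These gene-level reads cannot check the deletion itself, because exons that were not deleted are still counted. Prmt1 was lower in Heavy RNA by a log2 difference of -1.88 (SE 0.21, limma adjusted p = 7.87e-06), which is 0.272 of the control level on the log2(CPM + 1) scale. It was lower in Total RNA by -0.72 (SE 0.21, limma adjusted p = 0.0202), or 0.607 of control. In Light RNA the difference was -0.20 (SE 0.21, limma adjusted p = 0.506), or 0.872 of control, and did not pass the test. Adjusted p-values are Benjamini-Hochberg values over the 17515 genes tested, called under 0.05. Among all these genes 10.4% were called lower in Heavy, 10.3% in Total and 12.7% in Light RNA. With 3 libraries against 3 an exact two-sided permutation test of Prmt1 alone cannot go below 0.1, which it reached in Total and Heavy RNA, and it gave 0.4 in Light RNA.

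Individual knockout libraries kept 16.7, 31.4 and 37.6% of the Heavy control mean (28.5% on average). In Total RNA they kept 53.8, 64.7 and 63.6% (60.7%), and in Light RNA 69.6, 96.1 and 98.3% (88.0%). In bulk RNA fewer cells with the message and less message per cell cannot be told apart, nor can transcripts lacking the floxed exons and transcripts of undeleted alleles in these gene-level values. In Heavy RNA 25 of the 17515 genes fell further than Prmt1 (0.143%), against 608 in Total (3.47%) and 3548 in Light RNA (20.3%). The call in Total RNA was lost without Total control library 2 (limma adjusted p = 0.0562) or 3 (0.0614) or Total knockout library 1 (0.0809), over a range of 0.000168 to 0.0809 in all alternatives. The call in Heavy RNA held in all 16 alternatives (limma adjusted p of 1.36e-07 to 0.0092).

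Ratios of libraries of the same number compare the share of reads that Prmt1 had in each fraction. They do not give the amounts of its message in the fractions, and a ratio of 1 means equal shares only. In control cells the Heavy to Light ratio of Prmt1 CPM was 1.62, 1.55 and 1.70 (1.62 ± 0.0733, SD, n = 3). In knockout cells it was 0.388, 0.529 and 0.620 (0.512 ± 0.117). Every control ratio was above 1 and every knockout ratio below 1; knockout lay below control without overlap for 17.2% of all genes tested. Heavy to Total ratios were 1.61, 1.36 and 1.30 in control cells and 0.439, 0.688 and 0.838 in knockout cells, again with no overlap, which held for 5.35% of genes. Light to Total ratios went the other way, at 0.995, 0.878 and 0.763 in control and 1.13, 1.30 and 1.35 in knockout cells, where 20.9% of genes were higher without overlap. Total libraries of the controls did not deviate together with Heavy or Light libraries of the same number, so the spread and overlap of the ratios to Total rest on a matching by number alone. The exact permutation test gave 0.1, its smallest possible value, for each of the 3 ratios.

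**Figure D2:**
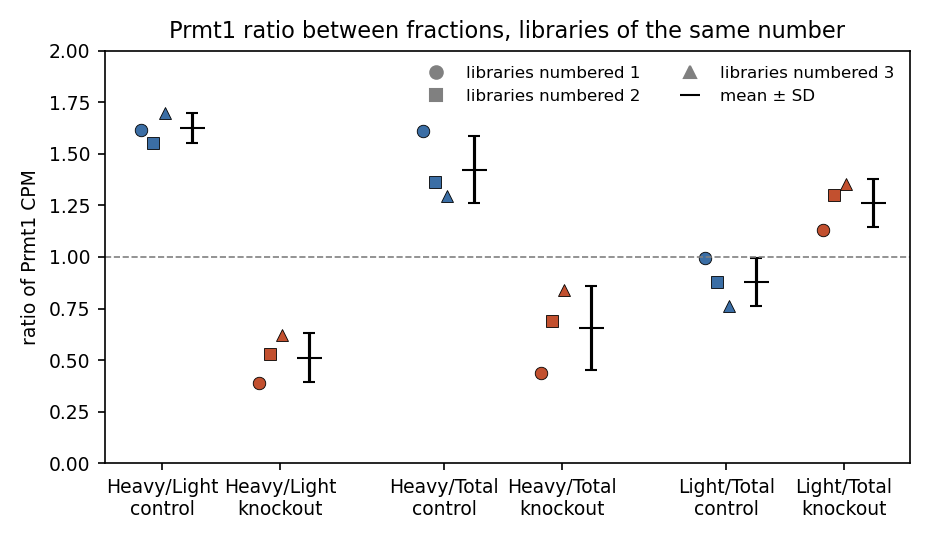
Ratio of Prmt1 CPM between fractions (vertical axis) for libraries of the same number in control (blue) and knockout (orange) cells. Marker shape gives the number, bars are mean ± SD (n = 3), and the dashed line marks equal CPM. Heavy over Light runs from 1.55 to 1.70 in controls and from 0.388 to 0.620 in knockouts.

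By the fit across all genes, Prmt1 in control cells was higher in Heavy than in Light RNA by log2 0.70 (SE 0.21, limma adjusted p = 0.0119), as were 23.6% of genes tested. In knockout cells it was lower in Heavy than in Light RNA by -0.98 (SE 0.21, limma adjusted p = 0.00133), as were 26.8% of genes. The change between these differences asks whether Heavy and Light Prmt1 differed unequally between knockout and control cells. It was -1.68 (SE 0.30, limma adjusted p = 0.0194). In that comparison 2.52% of genes (441) were called lower and 2.87% (503) in either direction. Prmt1 had the lowest value of the 17515 genes, and the next lowest was -1.17 for Mfge8, a secreted milk fat globule protein named here after its value was seen. The value of Prmt1 was the lowest in 20 of the 22 alternatives as well. With weights from the recovered reads (voom) 326 genes were lower, 2 of them averaging 1 CPM or more, and with a pseudocount of 0.1 there were 2, 0 of them at that level.

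The call of this unequal change depended on single libraries. It was lost when Heavy control library 1 (limma adjusted p = 0.0533), 2 (0.0539) or 3 (0.0529) or Light control library 2 (0.0591) or 3 (0.068) was left out, while the value stayed between -1.92 and -1.34 over all libraries left out in turn. It was also lost when only the 12 Heavy and Light libraries were fitted (limma adjusted p = 0.0817). That fit called 8 genes in all.

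**Figure D3:**
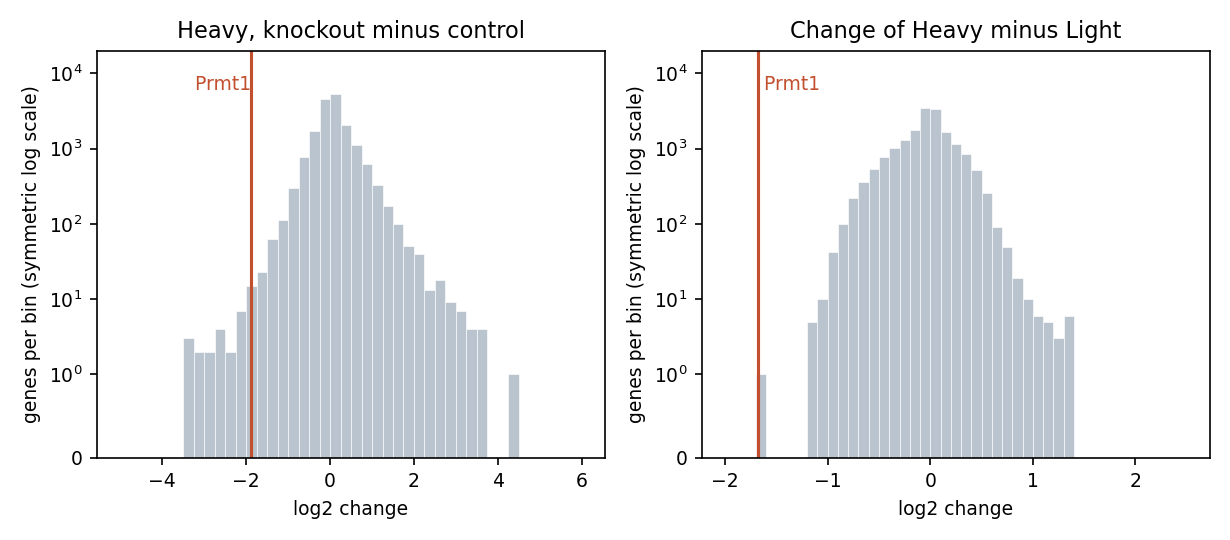
Number of genes per bin of log2 change (vertical axis, symmetric log scale) over the 17515 genes tested, for knockout minus control in Heavy RNA (left) and for the change of Heavy minus Light between knockout and control cells (right); the orange line marks Prmt1. At left Prmt1 (-1.88) has 25 genes below it, and at right (-1.68) it stands apart at the low end, with the next gene at -1.17.

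Against Total RNA the differences were smaller. In control cells Prmt1 was 0.50 (log2, SE 0.21) higher in Heavy than in Total RNA, which did not pass the test (limma adjusted p = 0.0705). In knockout cells it was 0.66 lower on the log2 scale (-0.66, SE 0.21, limma adjusted p = 0.0215), as were 28.9% of genes tested. That knockout call was lost without Heavy knockout library 1, where the value moved to -0.31 (limma adjusted p = 0.0877), and without Total knockout library 2 (0.0672) or 3 (0.0599). It was also lost with median-of-ratios scaling (-0.44, 0.123) and with the compared libraries alone (0.138). The change between knockout and control was -1.16 (SE 0.30, limma adjusted p = 0.251) for Heavy minus Total. For that contrast limma called 2 genes (0.0114%), with 1388 at an unadjusted p under 0.05. Light minus Total was -0.19 in control cells (limma adjusted p = 0.534), 0.33 in knockout cells (0.286) and 0.52 for the change between them (SE 0.30, limma adjusted p = 0.423), none of which passed. For the change of Light minus Total, limma called 0 genes (0%), with 2851 at an unadjusted p under 0.05, and the alternatives called 0 to 1143.

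Ordered by mean, the 6 levels of Prmt1 were Heavy control (387 CPM), Total control (273), Light control (239), Light knockout (209.9), Total knockout (166) and Heavy knockout (110.3). Between neighbours in this order the limma adjusted p was 0.0705, 0.534, 0.506 and 0.286 from the top, none past the threshold, and 0.0215 for the last pair, Total and Heavy knockout. The top pair, Heavy and Total control, did not overlap, which was not counted over all genes, and passed in 4 alternatives (0.00123 to 0.0421). The highest and the lowest group are the same fraction in the 2 treatments.

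Knockout libraries numbered 1 had the least Prmt1 in every fraction. Their log2 values deviated from their group means by -0.688 (Heavy), -0.319 (Light) and -0.167 (Total). Over the 11602 genes that averaged 1 CPM or more they also deviated most of the 3 knockout libraries in each fraction, with root mean squares of 0.339, 0.241 and 0.209. The other knockout libraries had 0.168 and 0.244 in Heavy, 0.163 and 0.166 in Light, and 0.124 and 0.14 in Total RNA. Without these 3 libraries the change of Heavy minus Light was -1.50 (limma adjusted p = 0.000606). Of the other differences that had not passed, 3 then did: -0.90 for the change of Heavy minus Total (0.0484), 0.60 for that of Light minus Total (0.0279), and 0.40 for Light minus Total in knockout cells (0.00815). The difference in Light RNA still did not (-0.04, 0.791). What these libraries share beyond their number is not stated in the labels.

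The other arginine methyltransferases set the scale of the Prmt1 level. Per kilobase of coding sequence, Prmt1 had 347 CPM in Heavy control cells, above Carm1 (146), which makes asymmetric dimethylarginine on transcription coactivators and splicing factors, Prmt7 (137), which makes monomethylarginine, and Prmt5 (103), the main symmetric enzyme. On this per-length scale Prmt1 had the highest mean of the family in 5 of the 6 groups, a comparison of levels with no test. In Heavy knockout cells it had a mean of 99.1 CPM per kilobase, below those of Carm1 (116) and Prmt5 (103) but within the spread of the libraries. In Light knockout cells it was still above them on this scale, at 189 CPM per kilobase against 131 and 65.0. The scale divides by coding bases alone, without untranslated parts. In plain CPM Prmt1 had the highest mean of the family in the control groups only. Carm1 then had more in Total (213 against 166), Light (256 against 209.9) and Heavy knockout cells (227 against 110.3). In Heavy knockout cells Prmt5 (197) and Prmt7 (167) had more as well.

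**Figure D4:**
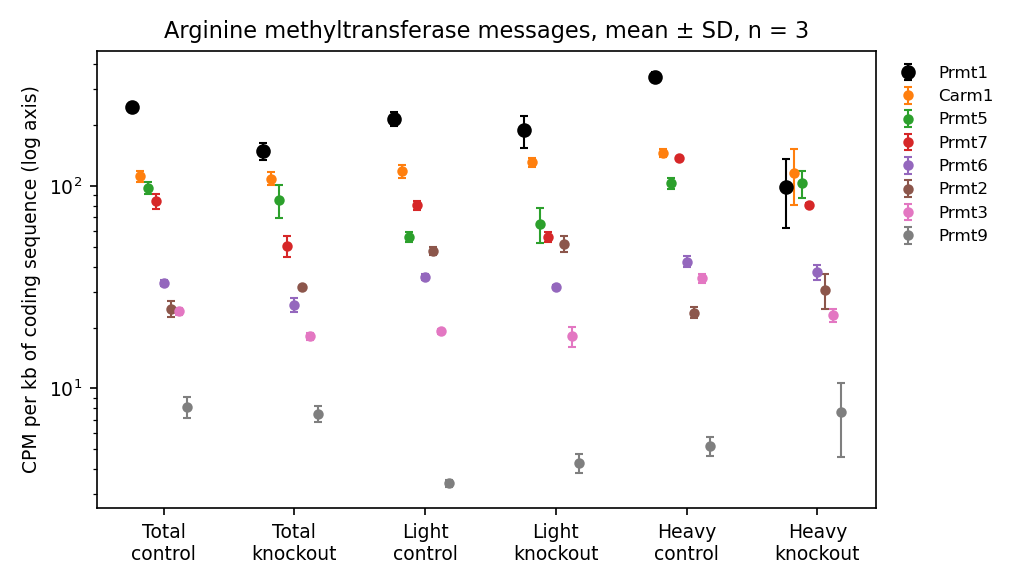
Level of Prmt1 and 7 other arginine methyltransferases in CPM per kilobase of coding sequence (log axis), as mean ± SD of 3 libraries in each group; Prmt8, near 0, is not drawn. Prmt1 (black) is the highest in every group but Heavy knockout, where the means of Carm1 and Prmt5 lie above it with overlapping SDs.

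Of the 8 other family members 7 were tested, and 1 rose and 3 fell in Total RNA, 0 rose and 1 fell in Light RNA, and 1 rose and 2 fell in Heavy RNA. Of all genes tested 16.1, 26.8 and 18.5% rose and 10.3, 12.7 and 10.4% fell in Total, Light and Heavy RNA. The family's medians were -0.20, 0.11 and -0.17 log2, against 0.01, 0.05 and 0.02 over all genes tested. Prmt7 fell in all 3 fractions, by -0.74, -0.51 and -0.76 log2 in Total, Light and Heavy RNA (limma adjusted p = 4.12e-05, 7.02e-04 and 2.54e-05), but overlaps Smpd3 on the opposite strand, and strand use in counting is not stated. Prmt3, which methylates a ribosomal protein, fell in Total (-0.40) and Heavy RNA (-0.59). Prmt6 fell in Total RNA (-0.35). Prmt2 rose in Total and Heavy RNA (0.35 in each, limma adjusted p = 0.0434 and 0.0439), calls that were lost in 8 and 9 of 16 alternatives, including each Total library left out and, in Heavy, each control library and knockout libraries 2 and 3. Prmt3 alone joined Prmt1 in the change of Heavy minus Light (-0.51, limma adjusted p = 0.0485), a call lost in 15 of 22 alternatives, among them each Heavy or Light control library left out.

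Genes that work with Prmt1 were counted in the same fit, and their counts are to be read against the same shares of all genes. Of 5 binding partners and regulators, 2 rose in Total RNA, 2 in Light and 4 in Heavy, with 0 falling. Btg2, an antiproliferative protein that binds Prmt1, rose by 0.85, 0.73 and 0.57 log2, from a low level of 5.13 to 10.2 CPM in Total RNA. Its Heavy call was lost with quantile normalization (0.38, limma adjusted p = 0.0651). Of 8 genes of the methyl donor cycle and of methylarginine breakdown, 0 rose, and 4 fell in Total, 1 in Light and 3 in Heavy RNA, with medians of -0.33, 0.07 and -0.20. Of the Total calls that of Adk, adenosine kinase, was lost in 5 of 16 alternatives, in each with a Total library left out (control 1 or 2, knockout 1, 2 or 3). Ddah1, which breaks down the free asymmetric dimethylarginine that Prmt1 products release, fell in all 3 fractions (-0.81, -0.65 and -0.85). Its Heavy call was lost in 1 of 16 alternatives. Ahcy, which clears the S-adenosylhomocysteine left by methylation, fell in Total (-0.63) and Heavy (-0.59) RNA, and Mat2a, which makes S-adenosylmethionine, in Total RNA (-0.67).

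Of 29 genes whose proteins are known to be methylated by Prmt1, 1 rose and 4 fell in Total RNA, 9 rose and 4 fell in Light RNA, and 4 rose and 8 fell in Heavy RNA. Their medians were -0.26, 0.24 and -0.09 log2. Cirbp, a cold-induced RNA-binding protein, fell in all 3 fractions (-0.83, -0.92 and -1.10). Rbm15, which guides RNA methylation, rose in all 3 (0.92, 1.37 and 1.13). In the change of Heavy minus Light 0 rose and 2 fell, Serbp1 (-0.73) and Eif4a1 (-0.58), against -1.68 for Prmt1, and those calls were lost in 10 and 12 of 22 alternatives, both without any 1 Heavy control library, Heavy knockout library 3, Light control library 2 or 3, or Light knockout library 1. Of 5 genes of the Prmt5 complex 1 fell in Total RNA, 0 changed in Light, and 1 rose and 1 fell in Heavy RNA. Wdr77, the partner that Prmt5 needs for activity, fell in both (-0.46 and -0.51). Of 6 methylarginine readers 0 changed in Total RNA, 1 rose and 1 fell in Light RNA and 1 rose in Heavy RNA. Snd1 was the reader that rose in both (1.13 and 0.92).

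The 3 genes nearest to Prmt1 in the table on each side are Cpt1c, Tsks and Ap2a1 on the lower-coordinate side and Gm15545, Bcl2l12 and Irf3 on the other, 480 to 47265 bases away. In Total and Heavy RNA 0 of the 6 were called, with log2 differences of -0.35 (Irf3) to 0.19 (Cpt1c) in Total and -0.29 (Irf3) to 0.32 (Cpt1c) in Heavy RNA. Of all genes tested 26.4 and 28.9% were called there, and Tsks, with a mean of at most 0.053 CPM, was too low to be informative. Ap2a1, a clathrin adaptor subunit that overlaps Fuz on the opposite strand, rose in Light RNA (0.66, limma adjusted p = 7.73e-04). Whether any of the 6 differs from Prmt1 in its change was not tested.

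The genes whose profile over the 18 libraries was nearest to that of Prmt1, by the root mean square difference of log2 values each centred on its own mean, were Ska1 (0.328), Wwox (0.33), Tube1 (0.336), Haus4 (0.341), Ptdss2 (0.349) and Gadd45gip1 (0.35). The median over the 9353 genes compared, all averaging 5 CPM or more, was 0.802, and a gene with no variation would have 0.632. They were chosen by the same values, so their changes are a description. All 6 were lower in knockout cells in Heavy RNA, by -0.96 (Ska1) to -1.35 (Wwox and Haus4) log2, less than the -1.88 of Prmt1, and all 6 in Total RNA, by -0.55 (Gadd45gip1) to -0.98 (Haus4). In Light RNA they were lower by -0.53 (Ska1) to -0.95 (Haus4), further than Prmt1 (-0.20).

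**Figure D5:**
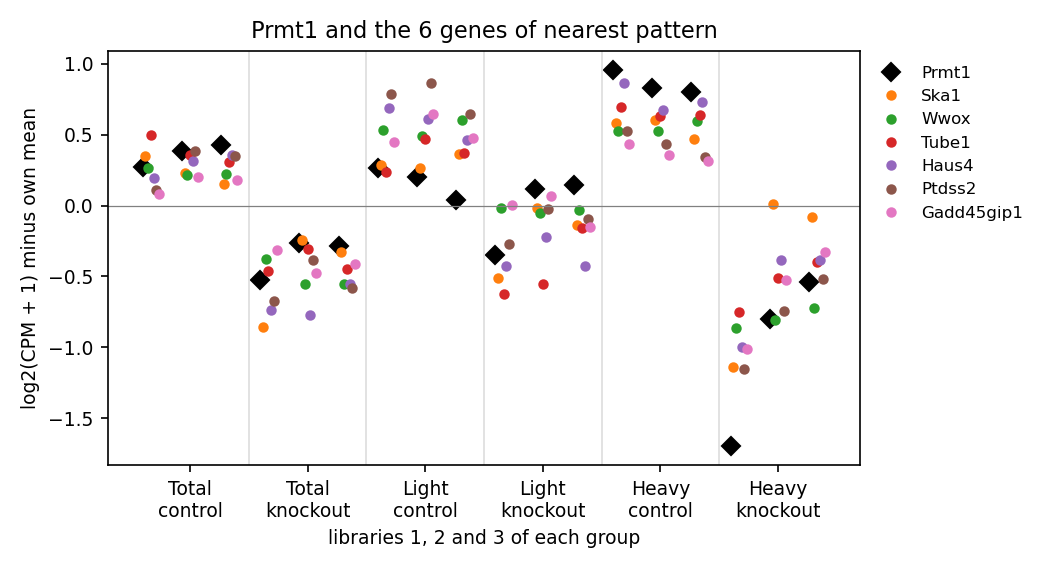
Log2(CPM + 1) minus each gene's own mean over the 18 libraries (vertical axis) for Prmt1 (black diamonds) and the 6 genes nearest to it in profile (coloured points), by group with libraries 1, 2 and 3 side by side. Prmt1 is above the 6 in all Heavy control libraries, and in Heavy knockout library 1 it is the lowest.

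For Prmt1 the control difference of Heavy minus Light was 0.70, whereas in the 6 it was -0.33 (Ptdss2) to 0.30 (Tube1) and 0 were called. The change of that difference in knockout cells was -0.34 (Ptdss2) to -0.77 (Wwox) in the 6, against -1.68 for Prmt1. Wwox, an oxidoreductase with WW domains, had 9.90 CPM in Light and 9.95 in Heavy control cells and 6.31 and 3.31 in knockout cells, and was the only 1 of the 6 called there (limma adjusted p = 0.014), a call lost without Light control library 2 (0.0518) or 3 (0.0545) and with the compared libraries alone (0.0786).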

How the data were processed

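RNA from 18 libraries was measured by sequencing (Truseq v2 libraries, NextSeq, per the labels' protocols). STAR, edgeR and the build mm10 are named, without versions, per the submitters' processing notes. No source used here names the read counter or says whether strand was used. The deposited values are log2(CPM + 1) for 19862 genes. Undoing the log gave whole reads for 100% of values (tolerance 0.1).

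The deposited log2 values were fitted with limma 3.58.1 (R 4.3.3; trend and robust variances, 6 group means, two-sided, Benjamini-Hochberg, called at an adjusted p under 0.05) on the 17515 genes above 0 in at least 3 libraries. A fold is of CPM + 1. Tables and plots used Python 3.11.15 with pandas 2.3.3, scipy 1.17.1 and matplotlib 3.10.9. The fit was tested on simulated data. Prmt1, the gene lists, tests and alternatives were chosen with earlier results of these data known. Named genes are Prmt1, its family, the 3 nearest genes on each side, the 6 nearest profiles (mean of at least 5 CPM, no unnamed models) and up to 4 members of a list with the lowest p in the contrast described; only some of these are printed, selected after their values were seen.

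Alternatives were quantile normalization, median-of-ratios scaling, voom weights on the recovered reads, limma without trend, other filters, a pseudocount of 0.1, the compared groups alone, a replicate block, each library left out, and all knockout libraries numbered 1 left out. Same-numbered Heavy and Light libraries deviated together from their group means (correlations of 0.324 to 0.412 for controls, 0.276 to 0.602 for knockouts), which is where that pairing comes from. Heavy and Light libraries of different number gave -0.404 to 0.132 for controls and -0.642 to 0.493 for knockouts. Heavy knockout library 3 correlated more with Light knockout library 2 (0.493) than with 3 (0.276), so that pair is less certain. Numbers did not pair control with knockout libraries (-0.453 to 0.558), or Total with Heavy or Light libraries in control cells (-0.647 to 0.355).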

Additional observations from a re-analysis of the deposited data

Results flagged for a closer look

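The difference in Prmt1 between knockout and control cells was larger in Heavy than in Light RNA in the main fit. The change of Heavy minus Light between knockout and control cells was -1.68 log2 (SE 0.30, limma adjusted p = 0.0194), from -1.88 in Heavy and -0.20 in Light RNA, and is listed here because that difference was tested directly. All 3 knockout ratios of Heavy to Light Prmt1 lay below all 3 control ratios, as they did for 17.2% of the genes tested. The alternatives gave -1.92 to -1.34, with limma adjusted p of 0.000606 to 0.0817. The call was lost when any of 5 libraries was left out, and with the compared libraries alone.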

How the results depend on the processing

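With median-of-ratios scaling, Prmt1 was 0.84 higher in Heavy than in Total control RNA and passed the test (limma adjusted p = 0.00511), the difference of Light minus Total in control cells changed sign to 0.052 (0.901), and that of Heavy minus Total in knockout cells (-0.44, 0.123) no longer passed; the median gene moved by 0.291, 0.213 and 0.191 there. Heavy minus Total in control cells (0.50) also passed with a mean of at least 1 CPM (0.0421), with the compared libraries alone (0.00123) and with the replicate block (0.0119). The compared libraries alone ended the calls of Heavy minus Total in knockout cells (-0.66, 0.138) and of the change of Heavy minus Light (-1.68, 0.0817). With the replicate block that change had an adjusted p of 0.01, and the block changed no call of Prmt1 other than that of Heavy minus Total in control cells. Among the other named genes it ended the calls of Prmt3 in the change of Heavy minus Light (0.0693), Eif4a1 in Heavy (0.0558) and Trp53bp1 in Light RNA (0.0601). Without all knockout libraries numbered 1, Light minus Total in knockout cells (0.40), the change of Heavy minus Total (-0.90) and that of Light minus Total (0.60) passed. Leaving out each library gave -0.77 to -0.64 for the change in Total RNA, -0.89 to -0.31 for Heavy minus Total in knockout cells and -1.92 to -1.34 for the change of Heavy minus Light. The difference in Light RNA passed in 0 of 16 alternatives (-0.42 to -0.04). The cause of these shifts was not tested.

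Counts of calls moved more. For the change of Heavy minus Light, 503 calls became 152 with quantile normalization, 49 with median-of-ratios scaling, 335 with voom, 756 without trend, 8 with the compared libraries alone, 1872 without knockout libraries numbered 1 and 7 to 2011 with a library left out. Calls in Heavy RNA fell from 5061 to 2976 with the compared libraries alone, and Light minus Total in knockout cells from 4674 to 2742 without Light knockout library 2. Of calls in Heavy RNA 64.1% were higher, against 49.1% with quantile normalization and 44.6% with median-of-ratios scaling; the shares were 60.9, 48.9 and 53.7% in Total and 67.9, 47.3 and 46.2% in Light RNA. Prmt1 minus the median gene in Heavy RNA was -1.92, -1.72 and -1.94 in the same order.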

Other observations

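The mice of origin carried conditional alleles of p53 and Rb, and reads of both genes were present. Trp53, which encodes p53, had 11.8 ± 1.43 CPM in Total control RNA (SD, n = 3), 17.6 ± 1.28 in Light and 3.93 ± 0.486 in Heavy control RNA. In knockout cells it had 10.7, 11.6 and 4.06 CPM, and the Light difference of -0.58 log2 passed the test (limma adjusted p = 0.015), but not without Light control library 3 (0.056) or Light knockout library 1 (0.0885). Rb1 had 3.50, 2.61 and 0.488 CPM in Total, Light and Heavy control RNA and overlaps Lpar6 and Rcbtb2. In knockout cells it had 5.41, 2.79 and 1.37 CPM, and the Heavy difference of 0.66 log2 passed the test (limma adjusted p = 0.0178). It did not pass without Heavy control library 1 (0.0687) or 3 (0.061) or Heavy knockout library 3 (0.0793). The Heavy control level is below the 1 CPM added before the log, and the alternatives gave 0.48 to 1.48 log2 for this difference. Like those of Prmt1, these gene-level reads can come from exons outside a deleted part, so they do not show whether the alleles were deleted.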
